A study of Mus musculus with 12 samples.

Results

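The homeobox, SOX and PAX genes are families of transcription factors that lay down the body plan and tissue identities of the embryo. The members described here were all symbols of the RNA-seq table that begin with Hoxa- to Hoxd-, Pax-, Sox-, Six-, Lhx-, Nkx- or Pou- followed by a number, with *Pax5*, *Pou2af1* and names ending in os or rik left out. This took 117 of 25860 listed genes, namely 40 Hox, 22 Sox, 17 Pou, 14 Nkx, 9 Pax, 8 Lhx and 7 SIX-family symbols. The rule left out 5 matching symbols. It let through 8 symbols that do not name a protein of these families, the transcripts *Six3os1*, *Pax6os1*, *Hoxd3os1*, *Sox5os3*, *Sox2ot* and *Sox1ot*, the related sequence *Pou5f1-rs4*, and *Pou2af2*.

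RNA-seq and ATAC-seq, which reads open chromatin from where a transposase can insert adapters, were done on progenitor CD8+ T cells sorted from pancreatic lymph nodes, with 3 libraries per genotype in each assay. The WT group came from nonobese diabetic (NOD) female mice whose CD8+ T cells carry the NY8.3 transgenic T cell receptor, which recognizes the β cell antigen IGRP. The UTX TCD group had the same strain and receptor, with floxed *Kdm6a*, the X-linked gene for the histone demethylase UTX, deleted by Cre under the T cell promoter Lck. The controls were Cre-negative littermates, so presence of Cre and loss of UTX cannot be told apart. No agent is named for either group, and the age of the mice for these libraries is not given in the sources used here. The gate is stated as Ly108+CXCR6- in the series description and as Ly108+CD39- in the methods.

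Many genes of these families are classical targets of Polycomb in cells that do not use them. Polycomb repressive complex PRC2 places methyl groups on lysine 27 of histone H3, complex PRC1 binds that mark, and UTX and its relative KDM6B remove it. A few members, among them *Pou2f1*, *Pou2f2* and *Sox4*, are known from lymphocytes.

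Depth limits what can be seen of silent members. Counted reads numbered 146456724, 144503203 and 193568919 across WT libraries and 61512402, 175462433 and 187275082 across UTX TCD libraries, so UTX TCD replicate 1 was the shallowest. A floor of 3 reads is a share between 1.55e-08 and 4.88e-08 of a library, which covers counting error only. *Kdm6a* had normalized counts, reads divided by a size factor per library, of 28365, 28949 and 29172 across WT libraries and of 24158, 24792 and 24579 in UTX TCD cells. Each UTX TCD value was lower than any WT value, and the log2 fold change was -0.23 ± 0.04 (SE; limma adjusted p = 0.00114). Reads over the deleted exons were not analysed here, so the value over the whole gene checks the labels only in direction.

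Most members had few or no reads in either genotype. Of the 117 members, 18 were at 0 in all 6 libraries, 66 had between 1 and 9 reads in their highest library, 16 had 10 or more reads in at least 1 library but a mean normalized count under 10, and 17 passed the filter of a mean normalized count of at least 10. The 66 were 22 Hox, 13 Sox, 9 Pou, 7 Nkx, 6 Lhx, 5 Pax and 4 SIX-family symbols. The members at 0 were 8 Hox symbols (*Hoxa13*, *Hoxb2*, *Hoxb7*, *Hoxb13*, *Hoxc11*, *Hoxc12*, *Hoxd12* and *Hoxd3os1*), 4 Nkx genes (*Nkx2-4*, *Nkx2-5*, *Nkx2-6* and *Nkx6-1*), 3 Pax symbols (*Pax1*, *Pax4* and *Pax6os1*), the Pou genes *Pou3f4* and *Pou4f3*, and *Six6*. No Pax and no Nkx gene passed the filter, and neither did any gene of the Hoxc and Hoxd clusters. A filter on the mean can favor members that are high in 1 genotype, so the counts over those that passed are descriptions and do not speak for all 117.

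The number of members with at least 1 read was 73, 75 and 58 in the WT libraries and 53, 64 and 61 in the UTX TCD libraries. The ranges of the genotypes overlapped. Detection did not follow depth alone, since WT replicate 3, the deepest library, had fewer than the other WT libraries. The shallowest library had the fewest. At the depth of that library, the expected numbers were 55.2, 59.0 and 44.7 across WT libraries and 53, 50.7 and 50.6 in UTX TCD cells. The order of the libraries therefore changed with depth, and at equal depth WT replicate 3 was the lowest. At least 10 reads were reached by 18, 20 and 19 members across WT libraries and by 13, 23 and 24 across UTX TCD libraries. The same count over all listed genes with at least 1 read was 18339, 18420 and 17654 across WT libraries and 17500, 17864 and 17969 in UTX TCD cells, so WT replicates 1 and 2 had the most detected genes in the whole table too.

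The 100 members below the filter together gave, in reads scaled to library size (RPM), 1.26, 1.40 and 0.878 across WT libraries and 1.5, 1.35 and 1.42 in UTX TCD cells. These summed levels overlapped between the genotypes. All 117 members together gave 191, 190 and 181 RPM across WT libraries and 276, 262 and 266 in UTX TCD cells. That total lay higher in every UTX TCD library, and between 95.0% and 95.9% of it came from the 6 most abundant members of each library. Fewer cells of a type and less RNA per cell cannot be told apart in such bulk libraries.

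Among the members that passed, 5 of 17 were called differentially expressed, against 17.6% of the 14459 genes tested. A call needed a Benjamini-Hochberg adjusted p under 0.05 over all tested genes and an absolute log2 fold change over 0.5 on the log2(normalized count + 1) scale, which understates changes of low genes. All 5 (*Sox13*, *Sox4*, *Sox12*, *Hoxb4* and *Lhx2*) were higher in UTX TCD cells, the direction of 10.5% of tested genes under the same rule. With no limit on the fold, 9 of the 17 passed, against 40.7% of tested genes. That 9 was less stable than the 5, since it was 5 without WT replicate 3, 4 without UTX TCD replicate 2 and between 6 and 8 without any other library. In 10 of the 17, all 3 UTX TCD libraries lay above all 3 WT libraries, which held for 25.8% of tested genes, and 0 of them, against 3774 of the 14459, had the reverse. The median log2 fold change was 0.40 over the 17 members and -0.000181 over all tested genes. For a single gene, 3 libraries against 3 allow no exact permutation p under 0.1.

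**Figure D1:**
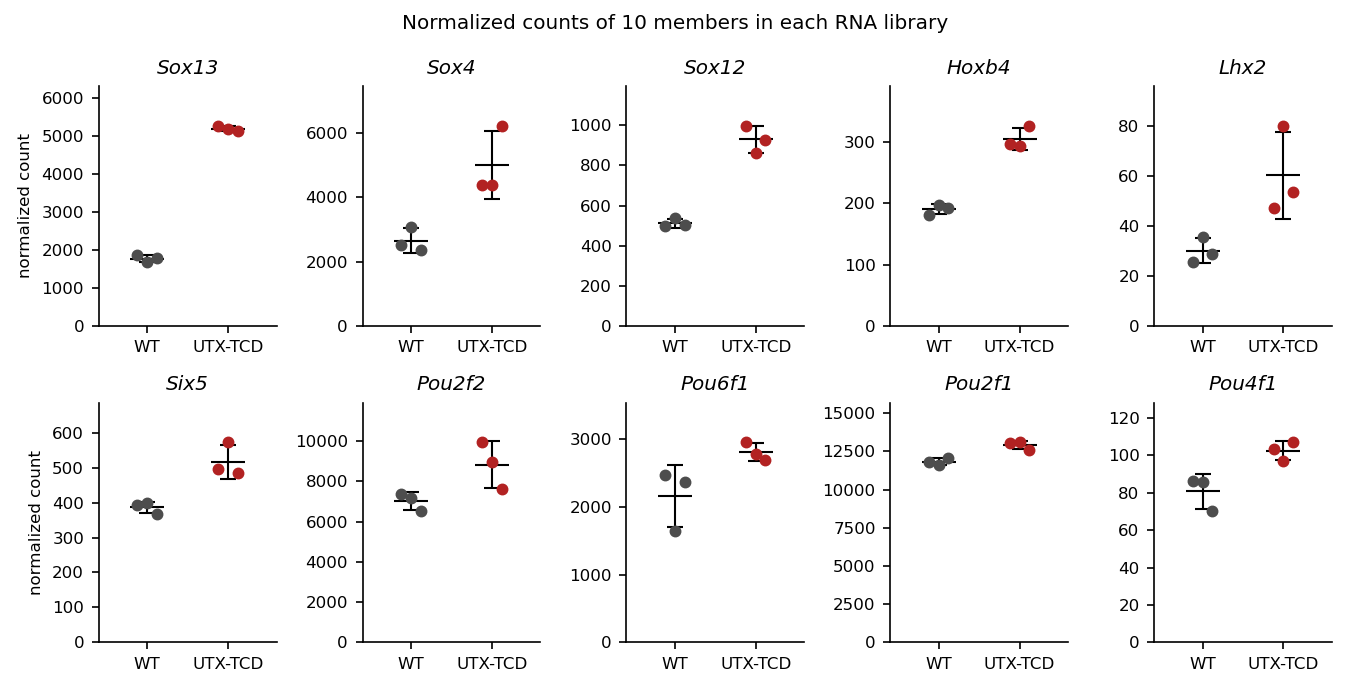
Normalized counts (vertical axes, each from 0) of 10 members in the 3 WT (grey) and 3 UTX TCD (red) RNA-seq libraries; points are libraries, and black bars are the mean and SD. Shown are the 10 of 17 tested members in which all UTX TCD values lay above all WT values, so the lack of overlap follows from the choice. The gap is widest for *Sox13*, from a highest WT value of 1860 to a lowest UTX TCD value of 5127.

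The SOX proteins bind DNA through a high mobility group domain. *Sox13*, a SoxD gene known for its part in γδ T cells, lies at chr1:133382300-133424459 (mm10). It had normalized counts of 1860, 1672 and 1788 across WT libraries and of 5266, 5192 and 5127 in UTX TCD cells. The libraries of each genotype lay close together and far from those of the other. The means were 1774 ± 94.8 and 5195 ± 69.5 (SD, n = 3 each). *Sox13* rose 2.93-fold, with a log2 fold change of 1.55 ± 0.06 (SE; limma adjusted p = 2.32e-07), and was called in all 17 alternative fits, with log2 fold changes from 1.51 to 1.61.

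*Sox4* and *Sox12* are SoxC genes with closely related proteins, and *Sox4* acts in early lymphocyte development. *Sox4* had normalized counts of 2512, 3085 and 2373 across WT libraries and of 4395, 4395 and 6221 in UTX TCD cells. The genotypes did not overlap, and UTX TCD replicate 3 was the highest. *Sox4* rose 1.87-fold, with a log2 fold change of 0.90 ± 0.14 (SE; limma adjusted p = 0.00111), which was 0.74 without that library. *Sox12* had normalized counts of 496, 538 and 502 across WT libraries and of 996, 864 and 929 in UTX TCD cells. Every UTX TCD value was well above the highest WT value. *Sox12* rose 1.81-fold, with a log2 fold change of 0.86 ± 0.09 (SE; limma adjusted p = 0.000141). *Sox11*, the remaining SoxC gene, had only 13, 10 and 4 reads across WT libraries and 3, 9 and 11 reads in UTX TCD cells. The ranges of *Sox11* overlapped, so the SoxC genes with appreciable reads were *Sox4* and *Sox12*.

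The other SOX genes that passed the filter did not pass the test. *Sox5*, the SoxD relative of *Sox13*, had normalized counts of 113, 166 and 104 across WT libraries and of 112, 113 and 91.4 in UTX TCD cells. Its ranges overlapped, with a log2 fold change of -0.25 ± 0.22 (SE; limma adjusted p = 0.403). That value was -0.05 without WT replicate 2 and -0.38 without WT replicate 3. *Sox15* had 20.8, 9.87 and 24.4 across WT libraries and 20.2, 17.6 and 18.4 in UTX TCD cells. The UTX TCD values of *Sox15* lay inside the WT range (log2 fold change 0.12 ± 0.40, SE; limma adjusted p = 0.838). Its sign depended on the WT libraries, with -0.25 without replicate 2 and 0.36 without replicate 3.

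The Hox genes sit in clusters and pattern the body axis. *Hoxb4*, known for its effect on the growth of blood stem cells, had normalized counts of 181, 196 and 193 across WT libraries and of 297, 293 and 326 in UTX TCD cells. The genotypes were clearly apart. The means were 190 ± 7.95 and 305 ± 17.9 (SD, n = 3 each), and *Hoxb4* rose 1.6-fold, with a log2 fold change of 0.68 ± 0.13 (SE; limma adjusted p = 0.00285). It was the only 1 of the 10 Hoxb symbols to pass the filter. Its neighbor *Hoxb3* had 8, 10 and 7 reads across WT libraries and 7, 20 and 5 in UTX TCD cells, with overlapping ranges.

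The 3 Hoxa genes that passed the filter, *Hoxa4*, *Hoxa5* and *Hoxa7*, had low and scattered values. *Hoxa5* had normalized counts of 14.9, 24.7 and 4.58 across WT libraries and of 31.5, 19.2 and 31.7 in UTX TCD cells. The UTX TCD mean was higher, but UTX TCD replicate 2 lay below WT replicate 2, and the log2 fold change of 1.08 ± 0.55 did not pass (SE; limma adjusted p = 0.150). Its size depended on the WT libraries, at 0.46 without replicate 3 and 1.56 without replicate 2. *Hoxa7* had 4.95, 12.8 and 5.34 across WT libraries and 18, 13.6 and 6.63 in UTX TCD cells. *Hoxa4* had 16.8, 26.7 and 16.8 across WT libraries and 13.5, 20.8 and 10.3 in UTX TCD cells. Neither was separated by genotype (limma adjusted p = 0.343 and 0.411). Their fold changes had opposite signs, 0.67 ± 0.53 for *Hoxa7* and -0.43 ± 0.39 for *Hoxa4* (log2, SE). Both sizes depended on the libraries. For *Hoxa7* the value was 0.46 without WT replicate 1 and 1.05 without UTX TCD replicate 3. For *Hoxa4* it was -0.69 without UTX TCD replicate 2 and -0.21 without UTX TCD replicate 3.

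*Lhx2*, a LIM homeobox gene of forebrain, hair follicle and blood progenitors, had normalized counts of 25.8, 35.5 and 29.0 across WT libraries and of 47.2, 80.1 and 53.8 in UTX TCD cells. The genotypes did not overlap, and UTX TCD replicate 2 was the highest. *Lhx2* rose 1.94-fold, with a log2 fold change of 0.96 ± 0.29 (SE; limma adjusted p = 0.0259). This call was less stable than those of the other 4. Over 17 alternative fits its adjusted p ran from 0.0204 to 0.117 and 10 kept the call. With limma it was 0.0918 without WT replicate 1, 0.0655 without WT replicate 3 and 0.113 without UTX TCD replicate 2, and the count tests, which used 5 libraries, gave adjusted p-values of 0.0805 with edgeR and 0.117 with DESeq2. *Lhx9*, a gonad and limb factor, had 7.92, 8.89 and 19.1 across WT libraries and 15.7, 8.01 and 8.85 in UTX TCD cells. Its ranges overlapped (log2 fold change -0.08 ± 0.47, SE; limma adjusted p = 0.902). That value was -0.36 without UTX TCD replicate 1, 0.09 without UTX TCD replicate 2 and -0.52 with edgeR on 5 libraries.

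*Six5*, a homeobox gene linked to the myotonic dystrophy locus, had normalized counts of 392, 398 and 368 across WT libraries and of 495, 572 and 484 in UTX TCD cells. All UTX TCD values were above all WT values. The log2 fold change of 0.42 ± 0.11 passed on its p but not on its size (SE; limma adjusted p = 0.0161). The p did not hold throughout. Over the alternative fits it ran from 0.00915 to 0.0783, and it was over 0.05 without WT replicate 1 (0.0504), WT replicate 3 (0.0566) or UTX TCD replicate 2 (0.0783), and on 5 libraries with edgeR (0.0580) and TMM scaling (0.0524).

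POU factors pair a homeodomain with a POU-specific domain, and *Pou2f1* and *Pou2f2* encode the octamer-binding proteins of lymphocytes. *Pou2f1* had normalized counts of 11835, 11586 and 12051 across WT libraries and of 13082, 13088 and 12628 in UTX TCD cells. *Pou2f2* had 7351, 7184 and 6511 across WT libraries and 9936, 8944 and 7623 in UTX TCD cells. Both were higher in each UTX TCD library than in any WT library, by log2 fold changes of 0.13 ± 0.04 and 0.33 ± 0.09, under the fold limit (SE; limma adjusted p = 0.0301 and 0.0194). Neither p held in every fit, and over all alternatives they ran from 0.00307 to 0.228 and from 0.00112 to 0.0634. For *Pou2f1*, among the fits that left out 1 library, only that without UTX TCD replicate 3 kept it under 0.05 (0.0242). It ran from 0.0518 to 0.113 without each other library, highest without UTX TCD replicate 2, and was 0.0513 with the replicate block and, on 5 libraries, 0.0944 with edgeR, 0.0654 with DESeq2 and 0.101 with TMM scaling. For *Pou2f2* it was 0.0634 without WT replicate 3, 0.0505 without UTX TCD replicate 1 and 0.0602 without UTX TCD replicate 2. An exon of *Pou2f1* overlaps the T cell gene *Cd247* on the opposite strand in the GENCODE annotation, and the strand setting of the counting is not stated, so part of its reads cannot be told apart from those of *Cd247*. The same holds for *Hoxa4*, *Hoxa7*, *Sox4*, *Sox5* and *Sox15*, which share exon bases with a gene on the opposite strand, and *Pou2f2* holds a microRNA gene on its own strand.

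*Pou6f1*, a gene of the nervous system, had normalized counts of 2469, 1636 and 2371 across WT libraries and of 2947, 2770 and 2693 in UTX TCD cells. WT replicate 2 was the lowest. The log2 fold change of 0.40 ± 0.14 (SE; limma adjusted p = 0.0462) was 0.21 without that library. It was 0.51 without WT replicate 1 and 0.50 with TMM scaling on 5 libraries. In both it passed the fold limit and *Pou6f1* was called. Its adjusted p was 0.104, 0.0967 and 0.0753 without UTX TCD replicates 1, 2 and 3 in turn, within a range of 0.00149 to 0.104 over all alternatives. *Pou4f1*, a factor of sensory neurons, had 86.2, 85.9 and 70.2 across WT libraries and 103, 96.9 and 107 in UTX TCD cells. The groups did not overlap, but the log2 fold change of 0.34 ± 0.19 did not pass (SE; limma adjusted p = 0.174). *Pou5f2*, a gene of the male germ line, had 155, 185 and 165 across WT libraries and 191, 183 and 191 in UTX TCD cells. Its ranges overlapped, with a log2 fold change of 0.17 ± 0.15 (SE; limma adjusted p = 0.396).

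In reads scaled to library size and per kilobase of exon (RPKM), the most abundant members over the 6 libraries were *Pou2f1* at 6.39 ± 0.470, *Sox13* at 6.39 ± 3.55, *Sox4* at 5.69 ± 2.31 and *Pou2f2* at 5.20 ± 0.939 (SD, n = 6). These means pool genotypes that differ, and their order did not hold within each. By genotype, *Sox13* lay at 3.30, 3.02 and 3.12 RPKM across WT libraries and at 9.81, 9.52 and 9.57 in UTX TCD cells, and *Pou2f1* at 5.98, 5.95 and 5.98 and at 6.93, 6.82 and 6.70. *Sox13* was thus below *Pou2f1* in every WT library and above it in every UTX TCD library. In every WT library *Pou2f1* was the highest of the 4, followed by *Pou2f2*, *Sox4* and *Sox13* in that order. *Pou6f1* at 3.28 ± 0.659 and *Sox12* at 1.15 ± 0.399 came next in the pooled means. *Pou5f2*, *Six5* and *Hoxb4* lay at 0.902 ± 0.0964, 0.848 ± 0.164 and 0.684 ± 0.193 on this length-corrected scale, over both genotypes. *Hoxa4*, *Hoxa5*, *Hoxa7*, *Lhx2*, *Lhx9*, *Pou4f1*, *Sox5* and *Sox15* were all between 0.00828 and 0.115.

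Members below the filter are given by their reads, in the order WT replicates 1 to 3 and UTX TCD replicates 1 to 3. *Six3* had 4, 5 and 12 reads across WT libraries and 6, 19 and 12 in UTX TCD cells. *Pax6*, the eye and pancreatic islet factor, had 2, 6 and 2 reads against 3, 3 and 12. Both had few reads in either genotype, with overlapping ranges. *Nkx3-2*, a skeletal factor, had 1, 0 and 1 reads across WT libraries and 1, 2 and 13 in UTX TCD cells. *Hoxc4* had 1, 2 and 1 reads across WT libraries and 1, 0 and 16 in UTX TCD cells. *Sox6* had 8, 4 and 3 reads across WT libraries and 2, 0 and 27 in UTX TCD cells. In these 3 genes most UTX TCD reads came from replicate 3. *Hoxc4* and *Sox6* overlapped between the genotypes, while *Nkx3-2*, once scaled, was higher in each UTX TCD library than in any WT library. *Nkx6-2* had 2, 5 and 0 reads across WT libraries and 2, 14 and 4 in UTX TCD cells. *Nkx2-1* had 1, 2 and 0 reads across WT libraries and 1, 10 and 0 in UTX TCD cells. *Hoxa6* had 3, 2 and 6 reads across WT libraries and 2, 12 and 1 in UTX TCD cells. These 3 were highest in UTX TCD replicate 2 and their ranges overlapped.

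*Hoxa3* had 11, 7 and 3 reads across WT libraries and 3, 16 and 8 in UTX TCD cells. *Hoxc8* had 9, 2 and 14 reads across WT libraries and 2, 5 and 3 in UTX TCD cells. *Hoxc9* had 9, 17 and 11 reads across WT libraries and 6, 3 and 9 in UTX TCD cells. None of these Hox genes separated the genotypes once scaled. *Pou3f2* had 5, 8 and 0 reads across WT libraries and 3, 0 and 11 in UTX TCD cells. *Sox8* had 7, 6 and 4 reads across WT libraries and 3, 8 and 12 in UTX TCD cells. Both overlapped as well. *Sox5os3*, a non-coding transcript named after *Sox5*, had 11, 16 and 11 reads across WT libraries and 1, 4 and 5 in UTX TCD cells. Scaled, its values were 10.9, 15.8 and 8.39 across WT libraries and 2.25, 3.20 and 3.69 in UTX TCD cells, so all UTX TCD libraries were below all WT libraries, at counts too low for the filter.

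Among the 82 members below the filter with any read, 7 had all UTX TCD values above all WT values and 6 the reverse. Over all 6403 such genes these shares were 6.03% and 6.14%. The 7 included *Hoxd1*, *Hoxd8*, *Nkx1-2*, *Nkx3-2*, *Pax8* and *Six4*, and the 6 were *Hoxc6*, *Lhx1*, *Pou1f1*, *Pou2f3*, *Sox18* and *Sox5os3*; of these, *Hoxd8*, *Pax8*, *Lhx1*, *Pou1f1*, *Pou2f3* and *Sox18* were chosen after their values were seen, and so were *Hoxc6* and *Six4*. *Hoxd1* had 0, 2 and 0 reads across WT libraries and 3, 4 and 8 in UTX TCD cells. *Hoxc6* had 2, 4 and 6 reads across WT libraries and 0 in all UTX TCD libraries. Such counts are at or near the floor of 3 reads, and no fold is given for them.

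The ATAC-seq table lists 23932 peaks, all with a false discovery rate under 0.05 in the authors' comparison, so only peaks that differed there are listed, and others were not analysed here. Each peak carries the authors' mean log2 concentration for each genotype, with no value per library, and the difference of the means has no replicate error. The gene of a peak is that of its nearest promoter. In all, 160 listed peaks belonged to 72 of the 117 members (61.5%), while 37.8% of all genes in the RNA-seq table had a listed peak. Of 82 other developmental factors, described below, 58 (70.7%) had one, so such coverage was not particular to members.

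Of the 160 member peaks, 153 had a higher mean in UTX TCD cells and 7 a lower one, against 68.8% higher over all listed peaks. The difference of means, UTX TCD minus WT, had a median of 1.08 over the member peaks and 0.49 over all listed peaks. It exceeded 1 log2 unit in 86 member peaks, against 19.1% of all listed peaks. The median WT mean concentration was 6.45 for member peaks and 7.69 for all listed peaks, while the median UTX TCD means were 7.54 and 7.92. Member peaks thus had a lower median signal in WT cells than listed peaks as a whole. No test of the list was made, and peaks of 1 gene or cluster are not independent.

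**Figure D2:**
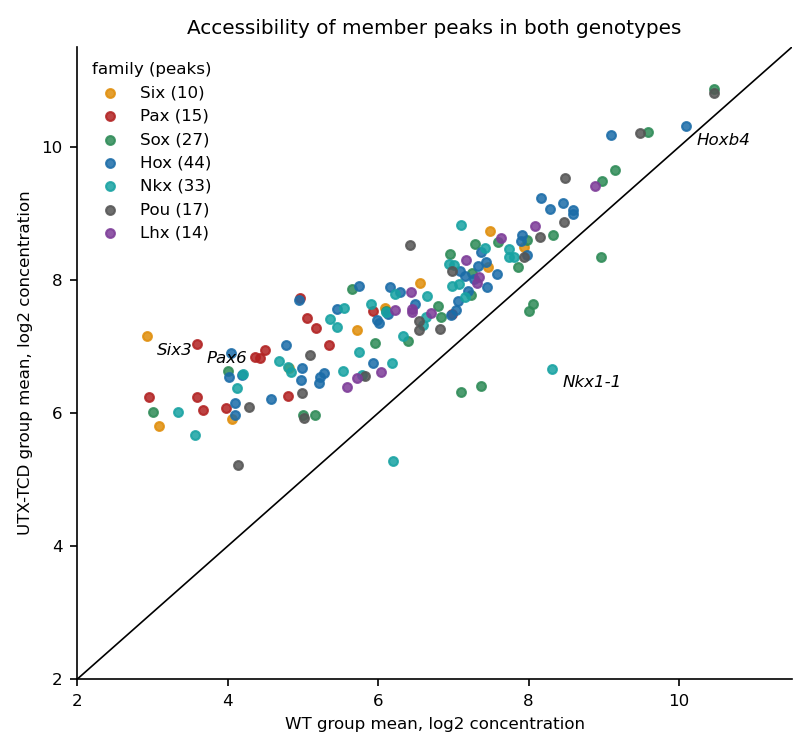
Authors' mean log2 concentration of each of the 160 member peaks in WT (horizontal) and UTX TCD cells (vertical), colored by gene family with the number of peaks; the line marks equal means. Points above the line are the 153 peaks with a higher UTX TCD mean, the widest gaps are at the low WT end, and 7 points lie below the line.

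Every family had peaks of this kind. All 44 Hox peaks (27 of 40 Hox members) were higher in UTX TCD cells, with a median difference of 1.08 log2 units. All 15 Pax peaks, from 5 of 9 Pax members, were higher too, with a median of 2.37 and a median WT mean of 4.49, the lowest of the 7 families. All 10 peaks of the SIX-family members were higher, with a median difference of 1.51. The 14 Lhx and 17 Pou peaks were all higher, by medians of 0.81 and 0.83. Of 33 Nkx peaks 31 were higher (median 1.18), and of 27 Sox peaks 22 (median 0.63). The Sox and Nkx families thus held all 7 lower peaks.

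Across the Hox clusters the size of the difference varied. The 7 listed peaks of Hoxa had a median difference of 0.63, the 16 of Hoxb 1.23, the 10 of Hoxc 1.64 and the 11 of Hoxd 1.35. The median WT means ran the other way, 7.36 in Hoxa, 6.39 in Hoxb, 6.01 in Hoxd and 5.34 in Hoxc. Each difference includes its WT mean and only peaks that differed are listed, so this inverse order may partly arise by construction. Over all listed peaks the median WT mean was 7.69, and 6.47 where the difference exceeded 1 in either direction. The largest Hoxc differences were at *Hoxc11* (chr15:102954560-102954960, exon 1), from 4.05 to 6.90, and at *Hoxc4* (chr15:103034391-103034791, annotated to its first exon), from 4.94 to 7.69. In Hoxd the largest was at *Hoxd11* (chr2:74679926-74680326, in an intron), from 4.01 to 6.54. *Hoxc11* was at 0 reads in all RNA libraries. At *Hoxb4*, the Hox gene with the most reads per length, the peak at chr11:96318387-96318787 went only from 10.09 to 10.31, the smallest difference among the 153 higher member peaks.

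The largest difference among member peaks was at the promoter of *Six3*, a factor of forebrain and eye. The peak (chr17:85620543-85620943, 91 bases upstream of the start site) had a mean log2 concentration of 2.93 in WT cells and of 7.15 in UTX TCD cells, a difference of 4.22 or 18.7-fold. Its WT mean was the lowest of all member peaks, so this fold rests on a small WT signal and has no replicate error. At *Pax6* all 5 peaks were higher, led by the one at chr2:105668836-105669236 in its first exon, from 3.59 to 7.03, and the peak assigned to *Pax6os1* in the same locus went from 4.36 to 6.84. *Pax2*, a kidney and ear factor, also had 5 higher peaks, with its promoter (chr19:44756602-44757002) going from 2.95 to 6.24. These 3 loci had at most 19 reads of RNA in any library for *Six3*, 12 for *Pax6* and 2 for *Pax2*. Also among the 10 members with the largest differences, beside *Hoxc11*, *Hoxc4* and *Hoxd11* given above, were a peak assigned to *Sox1ot* (chr8:12279844-12280244, intergenic), from 3.00 to 6.02, the promoter of the kidney factor *Six2* (chr17:85688340-85688740), from 3.09 to 5.80, and exon 3 of *Nkx6-3* (chr8:23157489-23157889), from 3.34 to 6.02. *Sox8* had an intergenic peak (chr17:25556233-25556633) that went from 4.00 to 6.63. The peaks given here for the 4 genes *Sox1ot*, *Six2*, *Nkx6-3* and *Sox8* each had a WT mean of 4.00 or less. These genes had fewer than 13 reads of RNA in every library.

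The lower peaks were few and mostly distant from start sites. *Nkx1-1* had 2 of them, an intergenic peak at chr5:33468772-33469172 that went from 8.31 in WT to 6.67 in UTX TCD cells and another at chr5:33526451-33526851 from 6.20 to 5.28, while its promoter peak went from 6.18 up to 6.75. *Sox5os3* had 4 lower peaks of 5, with differences from -0.97 to -0.43 log2 units, and its scaled reads were also lower in each UTX TCD library. The 5 *Sox5os3* peaks all lie within the *Sox5* gene (chr6:143828425-144782287). The 6 peaks assigned to *Sox5* were higher, so that locus holds peaks of both directions. *Sox13* had 1 lower peak in intron 1 (chr1:133417810-133418210, from 8.0 to 7.53) beside 3 higher ones, of which the largest, also in intron 1 (chr1:133412492-133412892), went from 5.96 to 7.04. These were the only 3 members with a lower listed peak.

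The 21 member peaks annotated as promoter-TSS, 1 for each of 21 members, had a higher UTX TCD mean, against 85.3% of all 2621 listed peaks with that annotation. Their median difference was 1.23 against 0.57, and their median WT mean was 6.42 against 8.51. After *Six3*, *Pax2*, *Pax6* and *Six2*, the largest promoter differences were those of *Sox7* (2.22), *Hoxd1* (2.15), *Pou3f2* (2.11) and *Hoxd11* (1.74). *Lhx6* (1.38), *Hoxc5* (1.23) and *Pou4f1* (1.05) also exceeded 1 log2 unit. Differences under 1 log2 unit were those of *Nkx1-2* (0.86), *Hoxa11* (0.83), *Pou3f1* (0.73), *Hoxa13* (0.70), *Hoxc10* (0.69), *Lhx3* (0.59), *Nkx1-1* (0.56), *Hoxb5* (0.45) and *Sox21* (0.34). Within 1000 bases of a start site, all 50 member peaks were higher, against 86.4% of all listed peaks there, and within 10000 bases 110 of 111 were, against 76.6%.

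Listed peaks were not limited to members with reads. Of the 84 members with fewer than 10 reads in every library, 52 had a listed peak, and in 51 of them all listed peaks were higher. Even the 18 members at 0 reads included 11 with listed peaks, 25 peaks in all, each higher in UTX TCD cells, with a median difference of 1.21. The 17 members that passed the RNA filter had 27 listed peaks over 8 genes, with a smaller median difference of 0.68 and a higher median WT mean of 7.31. Among the 5 called genes, *Sox12* had 2 higher peaks (largest difference 0.63), *Lhx2* had 4 (largest 0.81), *Hoxb4* had 1 and *Sox13* the 4 given above, while *Sox4* had no listed peak. *Pou4f1*, not called in RNA, had 5 higher peaks, with its promoter (chr14:104467835-104468235) going from 8.49 to 9.54.

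Member peaks also differed from the rest in base composition, which the rule did not use. They held a median of 4.86 CpG dinucleotides per 100 bases against 1.5 over all listed peaks, and a GC content of 58.0% against 49.4%. They also lay nearer to start sites, at a median distance of 3228 bases against 16778.5. Among promoter-TSS peaks the median CpG contents were closer, 7.73 for members and 6.98 for all listed peaks. Peaks of the other developmental factors described below held a median of 5.86 CpG and a GC content of 59.6%, so this composition was not particular to members. Direction went with CpG content over the whole table. Of all listed peaks, 54.8% were higher in UTX TCD cells where CpG was under 1 per 100 bases, 69.7% from 1 to under 3, 89.9% from 3 to under 6 and 90.8% at 6 or more. Over the same classes the member peaks were higher in 15 of 18, 32 of 36, 45 of 45 and 61 of 61. The share of member peaks in the richest classes was thus larger, and within each class the member share was still above that of all peaks; no test of this difference was made.

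**Figure D3:**
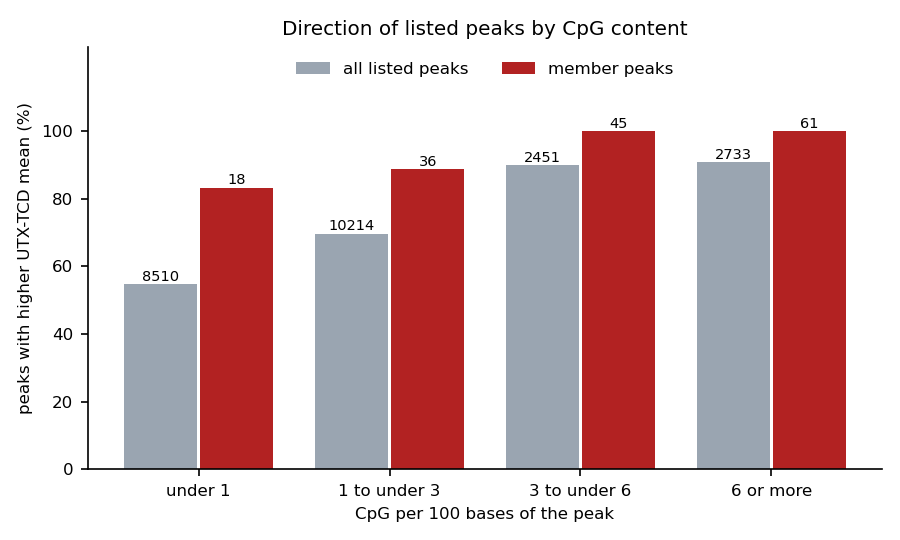
Percent of listed peaks with a higher UTX TCD mean (vertical axis, from 0) by CpG dinucleotides per 100 bases of the peak, for all listed peaks (grey) and member peaks (red); numbers on the bars are peaks. The grey bars go from 54.8% to 90.8% with CpG content, and the red bars reach 100% in the classes of 3 or more.

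The central bases of 3 peaks give examples, which do not all follow the medians above. They are the 2 promoter-TSS member peaks with the largest difference upward and, in contrast, the member peak with the largest downward, each as 181 bases of the plus strand of GRCm38.p6 (RefSeq), the same build as mm10, with CpG dinucleotides in capitals. The motif searched was CG, which reads the same on both strands. The *Six3* stretch (chr17:85620653-85620833) holds 8 CpG, the *Pax2* stretch (chr19:44756712-44756892) 23 and the intergenic *Nkx1-1* stretch (chr5:33468882-33469062) 3. The *Pax2* promoter was thus the richest of the 3 in CpG, and *Six3*, with the largest difference, was only moderately rich. GC contents of the stretches were 48.1% for *Six3*, 76.8% for *Pax2* and 53.6% for *Nkx1-1*, so *Six3* was the lowest of the 3.
Six3: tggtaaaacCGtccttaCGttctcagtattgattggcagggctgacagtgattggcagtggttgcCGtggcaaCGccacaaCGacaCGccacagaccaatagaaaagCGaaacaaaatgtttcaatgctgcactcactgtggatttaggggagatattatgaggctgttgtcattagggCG
Pax2: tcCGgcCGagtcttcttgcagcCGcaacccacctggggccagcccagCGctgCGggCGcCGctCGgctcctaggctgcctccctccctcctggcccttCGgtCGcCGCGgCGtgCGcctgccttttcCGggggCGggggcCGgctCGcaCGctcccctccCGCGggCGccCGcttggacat
Nkx1-1: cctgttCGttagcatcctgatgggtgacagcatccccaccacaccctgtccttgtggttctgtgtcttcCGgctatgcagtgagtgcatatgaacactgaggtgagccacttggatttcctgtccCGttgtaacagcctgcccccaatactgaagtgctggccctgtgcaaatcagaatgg

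The 82 other developmental factors of a list drawn from the Alx, Cdx, Dlx, Emx, Gata, Irx, Pitx, Tbx and related families were read in the same way. *Tbx2* alone passed the RNA filter, and its log2 fold change of 0.73 ± 0.30 did not pass the test (SE; limma adjusted p = 0.0828). Of their 130 listed peaks 126 were higher in UTX TCD cells, with a median difference of 1.19 and a median WT mean of 5.97. Higher means in most listed peaks were thus not limited to the members.

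Of 12 PRC2 genes tested, 2 were called higher and 0 lower, near the 17.6% called over all tested genes, with a median log2 fold change of 0.06. On 5 libraries edgeR called 1 of the 12 and DESeq2 2, against 14.8% and 14.7% of all genes in those fits. *Phf19*, an accessory subunit that recruits PRC2, had normalized counts of 823, 800 and 926 across WT libraries and of 2186, 2112 and 2433 in UTX TCD cells. It rose 2.64-fold (log2 1.40 ± 0.09, SE; limma adjusted p = 5.99e-06), with all UTX TCD libraries above all WT libraries. *Epop*, another accessory subunit, rose 1.44-fold (log2 0.53 ± 0.09, SE; limma adjusted p = 0.00137). The catalytic *Ezh2* lay just under the fold limit (log2 0.50 ± 0.04, SE; limma adjusted p = 3.73e-05), from 7935, 7917 and 7789 in WT to 10727, 11102 and 11528 in UTX TCD cells. Without WT replicate 1 or UTX TCD replicate 1 the log2 fold change of *Ezh2* was 0.50 or 0.52 and passed. Its relative *Ezh1* had a log2 fold change of -0.01 ± 0.05 (SE).

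Of 20 PRC1 genes 2 were called, against 17.6% of all tested genes. On 5 libraries edgeR and DESeq2 called 1 each, against 14.8% and 14.7% of all genes. In the limma fit *Cbx6* was called higher (log2 0.51 ± 0.06, SE; limma adjusted p = 0.000156) and *Pcgf2* lower (log2 -0.59 ± 0.13, SE; limma adjusted p = 0.00734). The calls of *Epop* and *Cbx6* ended without WT replicate 1 (0.47 and 0.46). That of *Epop* also ended without UTX TCD replicate 3 (0.48), and those of *Cbx6* and *Pcgf2* without UTX TCD replicate 2 (0.47 and -0.50), all on the log2 fold limit. The chromodomain genes *Cbx2*, *Cbx7* and *Cbx8* had log2 fold changes of 0.01, -0.12 and -0.27 and were not called. *Kdm6b*, the other demethylase, had a log2 fold change of -0.02 ± 0.04 (SE). None of 12 genes of the MLL/COMPASS complexes, only some of which include UTX, was called by limma, or by edgeR or DESeq2 on 5 libraries. The same held for the 8 tested TALE cofactors, the partners of HOX proteins. Of the MLL/COMPASS genes 4 had a limma adjusted p under 0.05 and 8 an unadjusted p under 0.05, and of the TALE genes 2 and 3. The same counts were 6 and 8 for the PRC2 genes and 8 and 8 for the PRC1 genes. Over all tested genes the shares were 40.7% adjusted and 49.1% unadjusted. The TALE and PRC1 lists exceeded neither share, the MLL/COMPASS list only the unadjusted share, and the PRC2 list both; no test of these lists was made.

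The CD8 T list had all 8 genes detected, with summed normalized counts of 1144080, 1106108 and 1093173 across WT libraries and 1175212, 1128135 and 1053293 in UTX TCD cells and *Cd8a* as its most abundant gene (270012 to 313000 per library). The B cell list summed to 7274, 6826 and 7176 across WT libraries and to 2902, 2778 and 3644 in UTX TCD cells, led by *Pou2af1*, which T cells can also express. The endothelial list summed to 31206, 29404 and 31351 across WT libraries and to 37095, 37259 and 33117 in UTX TCD cells, nearly all of it *Pecam1*, which T cells also express. The stromal list, led by *Col1a1*, summed to 1235, 719 and 1295 across WT libraries and to 1478, 1497 and 1377 in UTX TCD cells. The pancreatic list, led by *Prss2*, summed to 203, 181 and 156 across WT libraries and to 146, 131 and 114 in UTX TCD cells. The stromal and endothelial sums were higher, and the B cell and pancreatic sums lower, in each UTX TCD library than in any WT library. The CD4 T list (led by *Il2ra*) summed to between 822 and 1123, the myeloid list (*Cd68*) to between 622 and 1057, the dendritic list (*Xcr1*) to between 182 and 249 and the erythroid list (*Alas2*, 4 of 5 genes listed) to between 163 and 309, with overlapping genotypes. In the pancreatic list *Ins2*, *Sst* and *Pdx1* were at 0 in all libraries, and no gene of the other lists was.

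The sums follow their most abundant genes and hide others. The genes given next as separating the genotypes were chosen after their values were seen. In the CD4 T list, *Cd4* had normalized counts of 90.1, 104 and 83.1 across WT libraries and 58.5, 68.1 and 41.3 in UTX TCD cells, and *Zbtb7b* had 68.4, 34.6 and 86.2 across WT libraries and 9.0, 18.4 and 22.9 in UTX TCD cells. Both were lower in each UTX TCD library, although the sum overlapped. In the endothelial list *Cdh5* had 24.8, 21.7 and 9.91 across WT libraries and 0 in all UTX TCD libraries, while *Prox1* had 4.95, 0.987 and 0.763 across WT libraries and 20.2, 16 and 41.3 in UTX TCD cells. In the B cell list *Cd79b* and *Pou2af1* were lower in each UTX TCD library, but *Ms4a1* was higher, with 5.94, 19.7 and 8.39 across WT libraries and 20.2, 29.6 and 73.0 in UTX TCD cells. In the same way *Csf1r* was lower and *Cd68* higher in the myeloid list, and *Cd3d*, *Cd3g* and *Cd8b1* were lower and *Cd3e* and *Lef1* higher in the CD8 T list. *Col1a2* was higher in the stromal list and *Cela1* lower in the pancreatic list. The lists thus did not move as blocks, and their part in the results on members was not tested.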

How the data were processed

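RNA-seq (6 libraries) and ATAC-seq (6 libraries) were grouped by the genotype and replicate number of the labels. The authors aligned RNA-seq reads to mm10 with HISAT2 2.2.1, used featureCounts, and deposited a signal per gene and library, raw reads over a DESeq2 size factor. Annotation and strand setting are not stated. For ATAC-seq the authors used Cutadapt, Bowtie2, Picard, MACS2, DiffBind and HOMER. Of these values only the deposited log2 mean concentrations per genotype, positions and annotations were used. The deposited FDR, an adjusted p-value, was read only for its largest value, 0.05 when rounded, and the authors' fold changes and other tests were not used. The number of columns not mapped was 0.

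The limma 3.58.1 fit (R 4.3.3; lmFit, eBayes, trend on) took log2 of the normalized count plus a pseudocount of 1, for genes averaging 10 or more, with a term for genotype alone and Benjamini-Hochberg adjustment over every gene in the fit. Its code was tested on simulated data. Within each library 100% of the values were multiples of a common step (tolerance 0.001), and these multiples are given as reads. The step of WT replicate 1, 0.991, is close to 1, so its multiples were not taken as recovered raw reads in a test. TMM scaling, edgeR 4.0.16 and DESeq2 1.42.0 therefore used the other 5 libraries, a choice made after seeing the data, and compare best with the limma fit without WT replicate 1. On those 5 libraries edgeR called 2138 of 14461 genes and DESeq2 2131. The reads printed for WT replicate 1 rest on its step and are a description. Other alternatives covered the pseudocount, filter, scaling, replicate block, fold limit, peak limits and each library left out.

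Named were members past the filter, members with at least 10 reads in a library, the 10 members with the largest peak differences in each direction, members with promoter-TSS peaks, preset Polycomb and demethylase genes, called list genes and the top gene of each marker list; not all that this takes are reported. Members and lists were chosen with earlier results of these data known. RefSeq positions and exon lengths on GRCm38.p6 were found for 116 of 117 members. With samtools 1.23.1 the bases of 23908 of 23932 peaks were read. Python 3.11.15, pandas 2.3.3 and scipy 1.17.1 did the rest. The paper gives 3 mice per genotype for both assays. The p-values measure the spread between these samples.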

Additional observations from a re-analysis of the deposited data

How the results depend on the processing

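The count of 5 of 17 members called by limma was 8 of 66 when genes averaging 1 or more were tested (6 higher, 2 lower). Of all genes in that fit 15.2% were called. With no filter the count was 12 of 99 (8 higher, 4 lower), against 13.2% of all genes. Members with few reads entered in both fits. In both, the member share was below that of all genes, unlike the 5 of 17 against 17.6%. With no fold limit the count was 9. Every other setting gave 4 or 5, as did leaving out each library. The 5 with TMM scaling on 5 libraries and the 5 without WT replicate 1 held *Pou6f1* in place of *Lhx2*. *Sox13*, *Sox4*, *Sox12* and *Hoxb4* were called in each fit. *Lhx2* lost its call with TMM scaling, edgeR and DESeq2 on 5 libraries, and without WT replicate 1, WT replicate 3 or UTX TCD replicate 2. The 5-library settings were chosen after seeing the data, as was edgeR on 5 libraries with no filter. That fit called 4 of 93 members, a share below the 11.8% of all its genes. TMM scaling, edgeR and DESeq2 on all 6 libraries were not run. With the replicate block 5 of 17 members, against 17.1% of all genes, and 4 list genes were called. Same-numbered libraries correlated at 0.31, -0.20 and 0.09 after removal of group means, so the numbers were not taken as pairs.

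The median of 62.5 members detected per library was 41.5 at 3 reads and 19.5 at 10 reads, by construction, and 61 to 64 without each library. The 160 member peaks were 87 with a difference over 1 and 50 within 1 kb of a start site. The 95.6% with a higher UTX TCD mean became 98.9% with a difference over 1, 100% within 1 kb and 99.1% within 10 kb. Without the Hox clusters it was 94.0% and without the *Pax6* locus 95.5%, both chosen after seeing the data. The 4 called list genes were 6 when genes averaging 1 or more were tested and 2 with edgeR on 5 libraries. They were 2 to 6 without each library, and the cause was not tested. No direction was reversed for a called gene. Counts under 3 reads are not told apart from 0 at these depths, and peaks have no replicate error.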
